A study of Mus musculus with 12 samples.

Results

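Ribosomes are assembled in the nucleolus from ribosomal RNA that RNA polymerase I transcribes, and the genes described here encode the factors that make, modify, cut and fold that RNA, together with the transcription factor Myc. The list held 45 mouse symbols, of which 43 had a probe on the array through its RefSeq accession, with 47 probes in all, out of 19259 symbols named on the array. Wdr43 and Noc2l had no such probe and were not analysed here. The members were chosen from their signal over the 4 stages of these same arrays, so their values against proliferation are a description and support nothing beyond themselves. All 43 passed the filter on dim probes, and 13742 symbols were tested in all.

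The cells were C2C12, an established mouse myoblast line that leaves the cell cycle and fuses into myotubes when serum is reduced. Proliferating cells were kept in DMEM with 10% fetal bovine serum, and the other stages were taken 2, 5 and 8 days after the change to DMEM with 2% horse serum. Each stage had 3 one-colour Agilent arrays, 12 in all, and no genotype or other agent separated the stages. The labels do not say whether the 3 samples of a stage came from separate cultures, so the p-values measure the spread between these samples, which may be technical.

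Myc is a transcription factor that binds DNA with its partner Max at the sequence CACGTG and is known to drive ribosome production and growth in dividing cells. RNA polymerase I transcribes one long precursor, and box C/D and box H/ACA small nucleolar ribonucleoproteins (snoRNPs) then guide the methylation and pseudouridylation of that precursor. The small subunit processome folds and cuts the 18S part, and a separate set of factors matures the 28S part of the large subunit. Demand for ribosomes is known to be high in proliferating myoblasts.

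The CACGTG motif was searched in the RefSeq promoter windows (GRCm38.p6), each running from 250 bases before to 50 bases after a gene start. The motif reads alike on both strands and is the only one searched. It was found in 9 of the 38 members with a window (23.7%), and in 8.09% of 27025 genes with a window of the same length. Among other ribosome biogenesis factors 16 of 84 held it (19.0%), so the share is not particular to the members. The 4 windows below belong to the members with the largest fall at day 8 among those that held the motif, and the capitals mark it. Imp4 is shown at chr1:34439579-34439828 (plus strand), Nop2 at chr6:125131633-125131882 (plus strand), Tsr1 at chr11:74898092-74898121 (plus strand) and Utp20 at chr10:88826765-88826789 (minus strand). Imp4 and Nop2 are shown without the 50 bases after the gene start, and the last 2 are cut to the motif and its flanks.
Imp4: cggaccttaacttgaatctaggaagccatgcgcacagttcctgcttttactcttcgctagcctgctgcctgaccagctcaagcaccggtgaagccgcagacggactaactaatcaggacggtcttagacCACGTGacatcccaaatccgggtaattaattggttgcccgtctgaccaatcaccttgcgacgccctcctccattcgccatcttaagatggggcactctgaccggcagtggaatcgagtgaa
Nop2: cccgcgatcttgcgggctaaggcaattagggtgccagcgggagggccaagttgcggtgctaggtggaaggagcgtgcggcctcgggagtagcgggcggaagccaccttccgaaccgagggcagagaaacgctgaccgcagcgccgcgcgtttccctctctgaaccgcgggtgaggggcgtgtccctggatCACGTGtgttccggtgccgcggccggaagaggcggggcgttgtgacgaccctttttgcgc
Tsr1: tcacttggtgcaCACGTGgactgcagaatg
Utp20: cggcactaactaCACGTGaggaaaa
Counting the gene start as 1, the motif began at position -121 in Imp4, -60 in Nop2, 25 in Tsr1 and 38 in Utp20. Mybbp1a, Rrn3, Ltv1, Pes1 and Wdr43 also held it, Rrn3 at 2 places. Nop56, Nop58, Nhp2, Dkc1 and Ncl did not hold these letters in their windows. The 8 tested members with the motif had a median day 8 change of -1.08 and 6 were called lower, and the 28 without it had a median of -0.91 and 21 called lower. A match is a description of the letters and not a binding site.

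By day 8 most of the list was below its level in proliferating cells. Levels are given as relative signal, the processed signal divided by the 75th percentile of its own array, and changes are log2 differences of stage means with the standard error (SE) of the limma fit on 3 arrays per stage. A gene was called when its Benjamini-Hochberg adjusted p over all tested probes was under 0.05. At day 8, 34 of 43 members were called lower and none higher, where 30.8% of all tested genes were called lower and 25.7% higher. At day 5 the members called were 32 lower and 2 higher (25.5% and 24.3% of all genes), and at day 2 they were 22 lower and none higher (12.2% and 20.4%). The members' median change was -0.56 at day 2, -0.70 at day 5 and -1.03 at day 8, while the medians of all tested genes were 0.10, -0.02 and -0.11. Only 18 members could be measured once spots marked non-uniform were left out, and with the percentile then taken from the spots kept, their medians turned to 0.18 at day 2 and 0.15 at day 5 and were -0.26 at day 8, where those of all genes were 0.80, 0.83 and 0.55. In that setting 3, 2 and 4 members were called lower at day 2, day 5 and day 8 and 0, 2 and 0 higher. With the percentile from all spots the same 18 members had medians of -0.45, -0.64 and -0.82, with 6, 10 and 10 called lower. The shares of all genes called in these 2 settings are not given, so these counts cannot be read against the shares above. Of all called probes, 96.5%, 88.9% and 79.7% were higher at day 2, day 5 and day 8 with the spots kept. With all spots these were 67.7%, 53.5% and 48.2%. In these bulk samples, fewer cells that make a transcript and less of it in each cell cannot be told apart.

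The 12 arrays lay on 3 slides that followed the stages. Slide 1 held the 3 proliferation arrays and day 2 array 1, slide 2 held day 2 arrays 2 and 3 and day 5 arrays 1 and 2, and slide 3 held day 5 array 3 and the 3 day 8 arrays, so no slide held proliferating cells beside day 5 or day 8. In a fit that also held the slide as a term (the slide-blocked fit), the members called lower were 17 at day 2, 16 at day 5 and 13 at day 8, with none higher, where 5.75%, 11.8% and 9.04% of all genes were called lower. Every one of the 22, 34 and 34 member calls at day 2, day 5 and day 8 kept its sign in that fit, and 14, 16 and 13 of them stayed called. The day 2 calls that stayed were those of Myc, Nop58, Dkc1, Ncl, Npm1, Ddx21, Nop14, Wdr75, Rrp12, Ddx10, Tsr1, Wdr12, Gnl3 and Gnl2. At day 5 they were those of Nop56, Nop58, Dkc1, Gar1, Nhp2, Npm1, Ddx21, Polr1b, Nop14, Wdr75, Heatr1, Nob1, Wdr12, Rrp1b, Gnl3 and Gnl2, and at day 8 those of Myc, Nop56, Dkc1, Nhp2, Npm1, Nop14, Wdr75, Rrp12, Tsr1, Nob1, Nop2, Rrp1b and Gnl3. Within slide 1 the day 2 array was below the mean of the proliferation arrays for 35 of 43 members, with a median difference of -0.67 against 0.10 for all genes. Within slide 2 the mean of the day 5 arrays was below that of the day 2 arrays for 32 members (median -0.25, all genes -0.06). Within slide 3 the mean of the day 8 arrays was below the day 5 array for 32 (median -0.24, all genes -0.03). These counts compare means, so single arrays may overlap, and the matching counts over all genes were not made. The part of the slides in the changes at day 5 and day 8 was not tested beyond these values.

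Normexp background correction (offset 50), applied in place of the scanner software's own, gave smaller changes for several members. The day 8 change was then -3.05 for Nop56, -1.03 for Nop58, -1.35 for Nhp2, -0.81 for Nop14, -0.90 for Wdr12, -0.62 for Gnl2 and -0.40 for Bop1, each still called, while that of Rrn3 was larger at -1.16. The day 8 calls of Ncl (-0.25, adjusted p = 0.263) and Nolc1 (-0.46, adjusted p = 0.0812) were lost. Calls were also lost at day 2 for Ncl, Polr1b, Nop14, Heatr1, Ddx10, Nop2 and Gnl2 (adjusted p from 0.0523 to 0.796) and at day 5 for Myc, Ncl, Ubtf, Nop16, Bop1, Rrp1b and Nip7 (adjusted p from 0.0501 to 0.259). Between successive stages the lost calls were those of Dkc1, Npm1 and Polr1b from day 2 to day 5, and of Nhp2 (-0.10), Npm1, Ddx21 and Bysl from day 5 to day 8 (adjusted p from 0.0512 to 0.776).

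**Figure D1:**
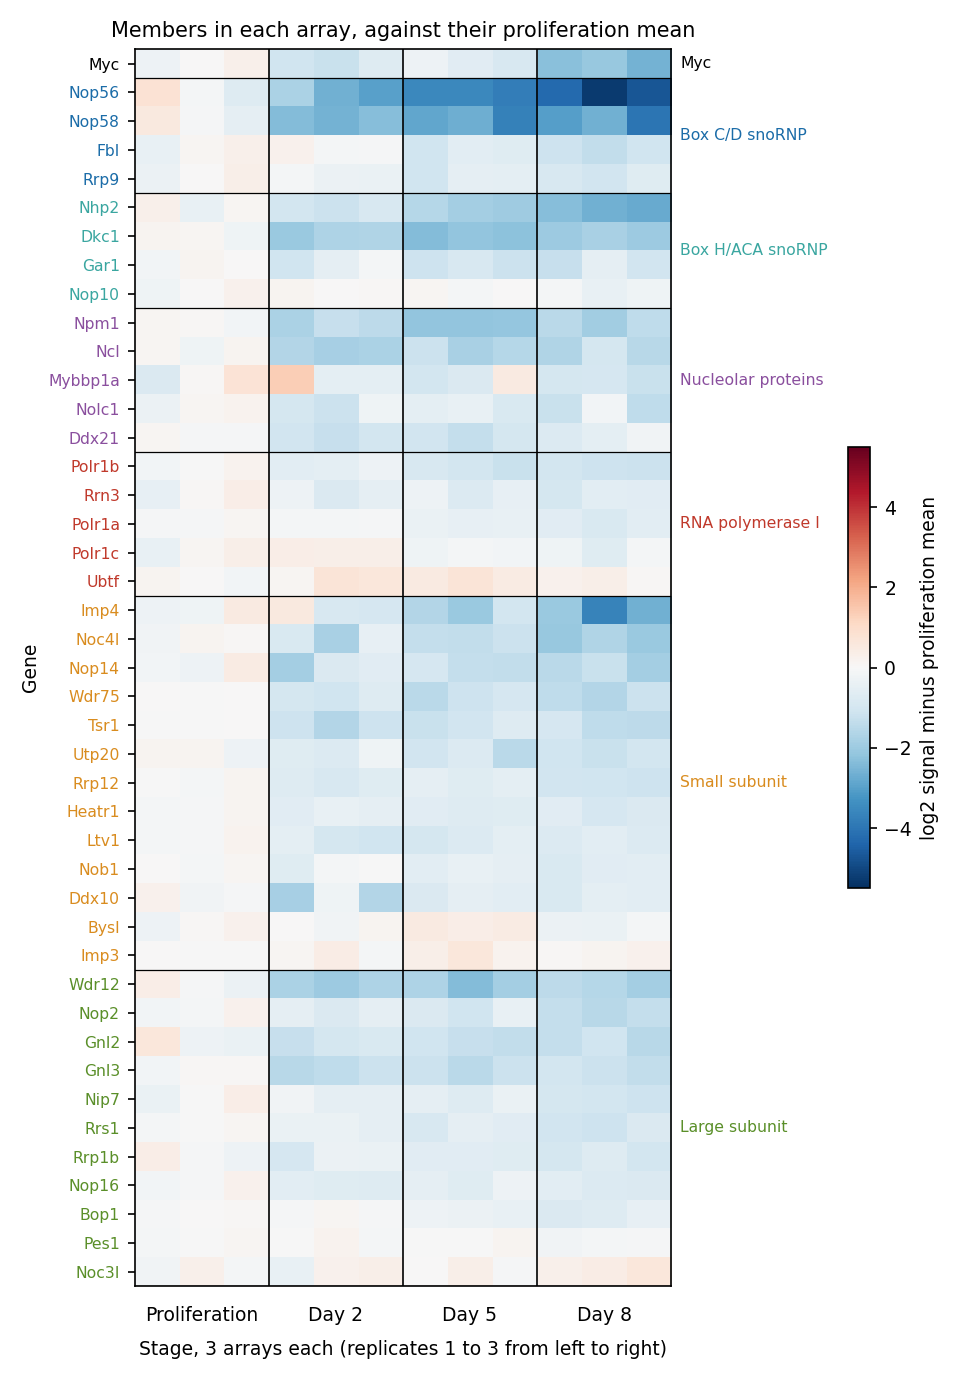
Each row is one of the 43 tested genes and each column one array, with colour for the log2 signal minus that gene's mean over the 3 proliferation arrays (blue lower, red higher). Genes are grouped by role and ordered by their day 8 change within a group. Nop56 and Nop58 show the darkest blue, and Noc3l, Imp3 and Ubtf remain pale.

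Myc itself was at 4.52, 5.64 and 6.61 in the proliferation arrays and at 2.59, 2.37 and 3.41 at day 2. It read 4.53, 3.62 and 2.97 at day 5 and 1.12, 1.31 and 0.911 at day 8. The day 2 and day 8 arrays all lay below the proliferation arrays, while the day 5 arrays overlapped them. Myc changed by -1 ± 0.22 at day 2 (adjusted p = 0.00671) and by -2.33 ± 0.22 at day 8 (adjusted p = 6.99e-06), a 5.01-fold difference. Its day 5 change of -0.60 ± 0.22 (adjusted p = 0.0442) was lost when day 2 array 1, day 5 array 2 or 3, day 8 array 1, or proliferation array 2 or 3 was left out (adjusted p from 0.0542 to 0.144), and in the slide-blocked fit (adjusted p = 0.345). From day 5 to day 8 Myc fell by 1.73 ± 0.22 on the log2 scale (adjusted p = 0.0015). That fall was also seen within slide 3, at -1.43, and held with every single array left out and in the slide-blocked fit. The day 8 call against proliferation held in the slide-blocked fit too, at -2.01 (adjusted p = 0.0257). The Myc probe was marked non-uniform by the scanner software on 11 of the 12 arrays.

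The box C/D snoRNP core held the largest day 8 falls, those of Nop56 and Nop58. With normexp these day 8 changes were smaller, at -3.05 and -1.03, each still called. All 4 members of the core were called lower at day 8 and at day 5, and 2 of 4 at day 2, with a median day 8 change of -2.21. At day 8, day 5 and day 2, 30.8%, 25.5% and 12.2% of all genes were called lower. Nop56 and Nop58 are the paired scaffold proteins of every box C/D particle. Nop56 read 1.98, 1.07 and 0.708 in proliferating cells, 0.346, 0.181 and 0.143 at day 2, 0.0984, 0.0983 and 0.0812 at day 5, and 0.0583, 0.0294 and 0.0432 at day 8. Each stage lay below the one before it with no overlap. The Nop56 changes were -2.46 ± 0.41, -3.63 ± 0.41 and -4.77 ± 0.41 at day 2, day 5 and day 8, the last a 27.2-fold difference (adjusted p = 3.38e-06). The steps from day 2 to day 5 (-1.17 ± 0.41, adjusted p = 0.0523) and from day 5 to day 8 (-1.13 ± 0.41, adjusted p = 0.0937) did not pass the test. In the slide-blocked fit the Nop56 day 8 change was -3.38 (adjusted p = 0.0259), and the day 2 change of -1.72 was no longer called (adjusted p = 0.0527).

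Nop58 was a dimmer probe with the same order of stages at first. It read 0.191, 0.126 and 0.091 in proliferating cells and 0.0247, 0.0217 and 0.0255 at day 2. It then read 0.0181, 0.0203 and 0.00996 at day 5 and 0.0161, 0.0211 and 0.00802 at day 8, and was well above background on 2 of the 3 day 5 arrays. All later arrays lay below all proliferation arrays, with overlap between day 5 and day 8. Nop58 changed by -2.44 ± 0.39 at day 2 and -3.22 ± 0.39 at day 8 (adjusted p = 4.48e-05), and in the slide-blocked fit the day 8 change was -2.21 (adjusted p = 0.114).

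Fbl (fibrillarin, the methyltransferase of the particle) and Rrp9 (a protein of the U3 particle) were not called at day 2. Fbl read 8.49, 12.1 and 13.7 in proliferating cells, 13.4, 10.5 and 10.7 at day 2, 5.30, 7.56 and 7.12 at day 5, and 5.07, 4.34 and 5.28 at day 8. Its day 2 arrays overlapped the proliferation arrays (0.03 ± 0.21), and the day 5 and day 8 arrays lay below them. Fbl fell by 0.80 ± 0.21 on the log2 scale between day 2 and day 5 (adjusted p = 0.0129) and stood at -1.20 ± 0.21 at day 8. The step from day 2 was lost without day 2 array 1 or day 5 array 1 (adjusted p = 0.0504 and 0.0552). Rrp9 read 9.70, 12.2 and 14.9 in proliferating cells, 11.3, 9.57 and 9.40 at day 2, 5.69, 8.58 and 8.44 at day 5, and 6.53, 5.84 and 7.69 at day 8. The Rrp9 arrays of day 5 and day 8 lay below those of proliferation, with changes of -0.70 ± 0.21 and -0.86 ± 0.21. The Rrp9 day 5 call was lost without day 5 array 1 or proliferation array 3 (adjusted p = 0.07 and 0.0652), and neither Fbl nor Rrp9 was called at day 8 in the slide-blocked fit (adjusted p = 0.191 and 0.27).

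**Figure D2:**
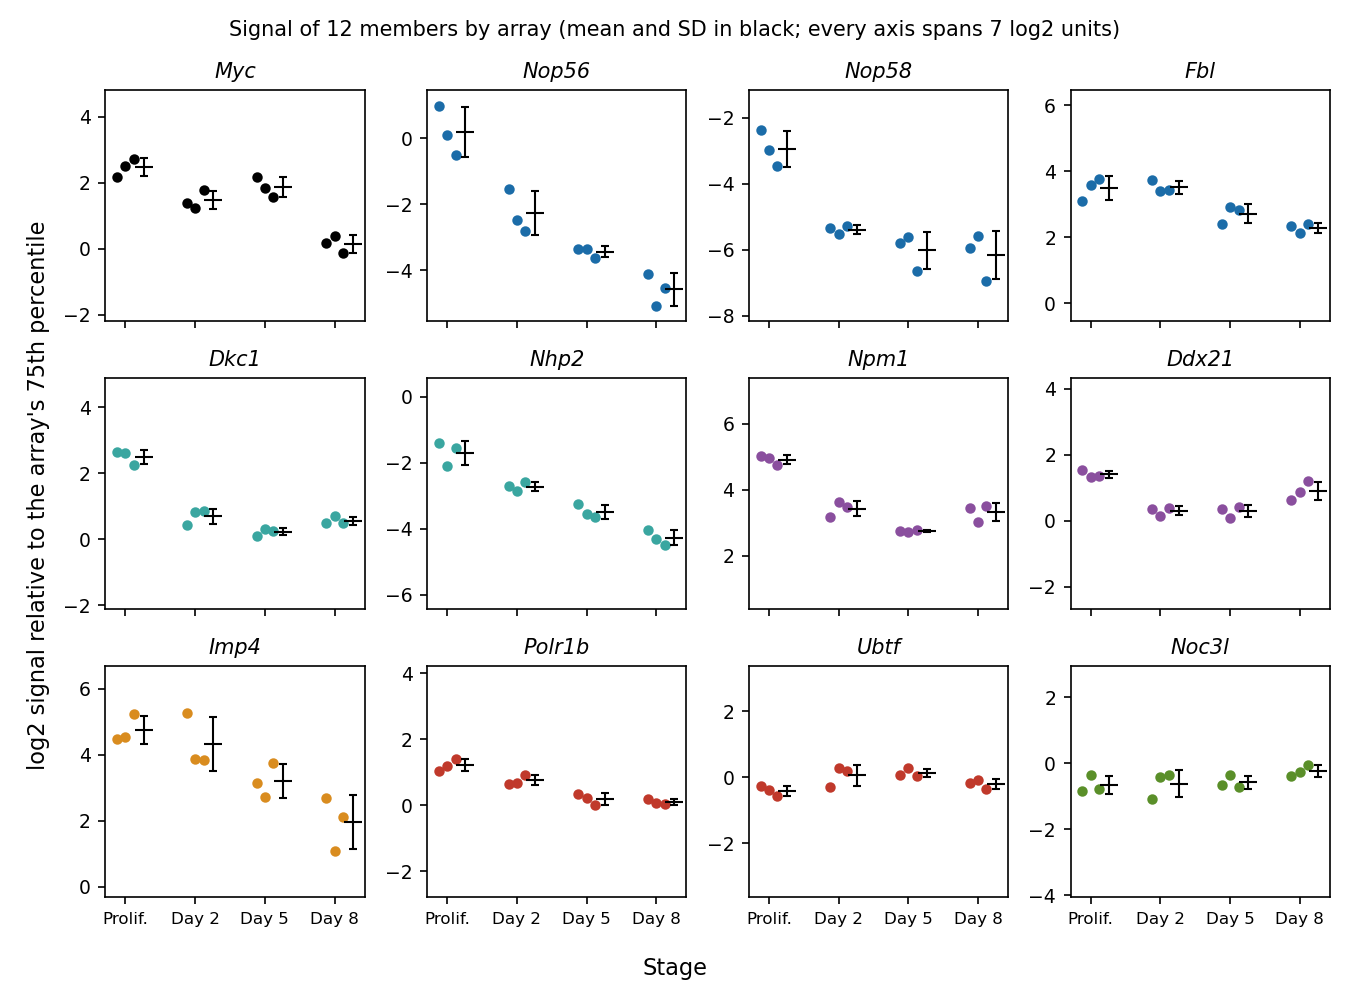
Dots are the log2 signal of 12 genes relative to the array's 75th percentile, one dot per array, with the mean and SD of the 3 arrays of a stage in black. Every vertical axis spans 7 log2 units, so slopes can be compared between panels while levels cannot. Nop56 falls from stage to stage, Myc has 2 falls with a plateau between them, Noc3l stays near its starting level, and Ubtf is higher at day 5.

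In the box H/ACA snoRNP core, which carries out pseudouridylation and also belongs to telomerase, 3 of 4 members were called lower at day 8 and at day 5, and 2 at day 2. The median day 8 change was -1.44, and 30.8%, 25.5% and 12.2% of all genes were called lower at day 8, day 5 and day 2. Dkc1 (dyskerin, the pseudouridine synthase) read 6.19, 6.08 and 4.72 in proliferating cells, 1.35, 1.75 and 1.79 at day 2, 1.08, 1.25 and 1.17 at day 5, and 1.41, 1.62 and 1.40 at day 8. Nearly all of its change was in place by day 2. Dkc1 changed by -1.80 ± 0.16, -2.27 ± 0.16 and -1.93 ± 0.16 at the 3 later stages (adjusted p = 4.1e-05, 8.88e-07 and 2.37e-06), and each of these calls held in the slide-blocked fit, the day 8 one at -2.34 (adjusted p = 0.0024). The step from day 2 to day 5 (-0.48 ± 0.16, adjusted p = 0.0429) was lost when any of 8 single arrays was left out (adjusted p from 0.0556 to 0.137), namely day 2 array 2 or 3, any day 5 array, day 8 array 1 or 3, or proliferation array 2.

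Nhp2, an RNA-binding core protein, fell at every step, though with normexp the last step was only -0.10 (adjusted p = 0.776). It read 0.377, 0.234 and 0.339 in proliferating cells, 0.153, 0.138 and 0.167 at day 2, 0.106, 0.0849 and 0.0799 at day 5, and 0.0614, 0.0501 and 0.0451 at day 8. No 2 neighbouring stages overlapped, and Nhp2 was the only member of the 43 called lower at all 3 successive steps (-1.03 ± 0.20, -0.76 ± 0.20 and -0.79 ± 0.20). The second step was lost without day 2 array 3 or day 5 array 3 (adjusted p = 0.0535 and 0.0511), and the last without day 5 array 1 or 2 or day 8 array 2 or 3 (adjusted p from 0.0623 to 0.113). None of the 3 steps was called in the slide-blocked fit (adjusted p = 0.0504, 0.0989 and 0.284). The total Nhp2 change at day 8 was -2.58 ± 0.20 (5.99-fold, adjusted p = 1.56e-06), and -2.32 in the slide-blocked fit (adjusted p = 0.0129).

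Gar1, which helps the particle engage its target, read 0.627, 0.768 and 0.696 in proliferating cells, 0.329, 0.486 and 0.649 at day 2, 0.319, 0.379 and 0.304 at day 5, and 0.286, 0.493 and 0.330 at day 8. The day 5 and day 8 arrays lay below the proliferation arrays, with changes of -1.06 ± 0.26 and -0.95 ± 0.26, the latter not called in the slide-blocked fit (-1.52, adjusted p = 0.0742). Nop10, the smallest core protein, read 43, 50.8 and 59.4 in proliferating cells, 55.6, 52.0 and 53.3 at day 2, 54.6, 46.8 and 52.1 at day 5, and 47.7, 38.7 and 43 at day 8. Its stages overlapped and no comparison was called (-0.24 ± 0.14 at day 8).

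Of the 5 members grouped as nucleolar proteins, 4 were called lower at day 8 and 3 at day 2 and at day 5. The shares of all genes called lower were 30.8% at day 8, 12.2% at day 2 and 25.5% at day 5. Npm1 (nucleophosmin, the main scaffold of the granular nucleolus) read 32.4, 31.4 and 27.2 in proliferating cells, 9.12, 12.4 and 11.1 at day 2, 6.79, 6.66 and 6.96 at day 5, and 10.8, 8.13 and 11.5 at day 8. Its lowest stage was day 5, below every array of every other stage. The Npm1 changes were -1.49 ± 0.16, -2.15 ± 0.16 and -1.59 ± 0.16, and all 3 held in the slide-blocked fit. Npm1 rose by 0.56 ± 0.16 from day 5 to day 8 (adjusted p = 0.0489), a call lost when any of 10 of the 12 arrays was left out, every one except day 2 array 1 and day 8 array 2 (adjusted p from 0.052 to 0.147).

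Ddx21, an RNA helicase that acts with RNA polymerases I and II, had a like course. It read 2.89, 2.51 and 2.56 in proliferating cells, 1.29, 1.11 and 1.31 at day 2, 1.29, 1.07 and 1.33 at day 5, and 1.56, 1.84 and 2.29 at day 8, so day 8 lay between proliferation and the earlier days. Ddx21 changed by -1.10 ± 0.16 at day 2 and -1.11 ± 0.16 at day 5 and by -0.50 ± 0.16 at day 8 (adjusted p = 0.0236), and it rose by 0.61 ± 0.16 from day 5 to day 8 (adjusted p = 0.035). The day 8 call was lost without day 8 array 1 or 2 or proliferation array 1 (adjusted p from 0.0568 to 0.0973), and the rise without day 5 array 1 or 2, day 8 array 2 or 3 or proliferation array 2 (adjusted p from 0.0507 to 0.111). In the slide-blocked fit neither was called, and the day 8 change was -0.58 (adjusted p = 0.376).

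Ncl (nucleolin, which binds nascent ribosomal RNA) read 0.065, 0.051 and 0.0662 in proliferating cells, 0.0198, 0.0172 and 0.0183 at day 2, 0.0264, 0.0173 and 0.0206 at day 5, and 0.0193, 0.031 and 0.0208 at day 8. The change was -1.71 ± 0.21 at day 2, and the later stages overlapped (-1.52 ± 0.21 and -1.38 ± 0.21), but with normexp Ncl was called at none of them. The Ncl day 8 call was not held in the slide-blocked fit (-1.16, adjusted p = 0.177). The Ncl probe was dim, at 26.9 to 28.8 scanner units at day 2. Nolc1 (Nopp140, a snoRNP chaperone) had 4 probes that did not give the same calls. The brightest was called at day 8 (-0.92 ± 0.34, adjusted p = 0.0386) and another at day 2 (-1.20 ± 0.40, adjusted p = 0.0447), and the other 2 at no stage. The Nolc1 day 8 call was lost without day 5 array 1, day 8 array 1 or 3, or proliferation array 2 or 3 (adjusted p from 0.0506 to 0.142), and in the slide-blocked fit (adjusted p = 0.561). Mybbp1a, a nucleolar protein first found as a Myb partner, read 0.405, 0.737 and 1.20 in proliferating cells and 1.79, 0.483 and 0.486 at day 2, and was not called at day 8 (-1.05 ± 0.57). Its day 2 array 1, on the slide of the proliferation arrays, stood well above the other day 2 arrays.

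RNA polymerase I and its initiation factors gave the smallest median of the 6 groups, -0.67 at day 8. Of these 5 genes 1, 2 and 3 were called lower at day 2, day 5 and day 8, and 1 was called higher at day 5. The shares lower were 20%, 40% and 60%, where those of all genes were 12.2%, 25.5% and 30.8%. In a group of 5 the first 2 shares are near those of all genes. Polr1b, the second largest subunit, read 2.07, 2.29 and 2.67 in proliferating cells, 1.58, 1.61 and 1.91 at day 2, 1.29, 1.16 and 1.01 at day 5, and 1.15, 1.05 and 1.02 at day 8. All later arrays were below the proliferation arrays, with changes of -0.46 ± 0.15, -1.03 ± 0.15 and -1.12 ± 0.15. The Polr1b day 2 call was lost without day 2 array 1 or 2 or proliferation array 2 or 3 (adjusted p from 0.0767 to 0.107), and its step from day 2 to day 5 (-0.56 ± 0.15) without day 2 array 3 or day 5 array 3 (adjusted p = 0.0561 and 0.0549). In the slide-blocked fit Polr1b was called at day 5 (-1.08, adjusted p = 0.02) and not at day 8 (-0.99, adjusted p = 0.0799).

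Polr1a, the largest subunit, read 14.7, 14.9 and 16.8 in proliferating cells, 14.5, 14.2 and 14.9 at day 2, 12, 11.3 and 11.8 at day 5, and 10.1, 8.67 and 10.4 at day 8. It was not called at day 2 (-0.09 ± 0.12) and fell at day 5 (-0.40 ± 0.12) and day 8 (-0.67 ± 0.12, adjusted p = 0.000625). The Polr1a day 5 call was lost without proliferation array 3 (adjusted p = 0.0546) and the day 8 call in the slide-blocked fit (-0.69, adjusted p = 0.164). Rrn3 (TIF-IA, which recruits the polymerase in growing cells) read 5.24, 7.64 and 9.42 in proliferating cells, 5.98, 4.14 and 5.11 at day 2, 5.91, 4.27 and 5.23 at day 5, and 3.75, 4.87 and 4.71 at day 8. Only the day 8 arrays lay wholly below the proliferation arrays. The Rrn3 change of -0.71 ± 0.23 at day 8 (adjusted p = 0.023) was lost without day 8 array 1 or proliferation array 2 or 3 (adjusted p from 0.0645 to 0.09), and in the slide-blocked fit (-0.39, adjusted p = 0.692).

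Polr1c, a subunit shared with RNA polymerase III, read 14.7, 21.1 and 24.2 in proliferating cells, 25.1, 24.4 and 24.3 at day 2, 16.7, 18.2 and 17.7 at day 5, and 16.7, 12.3 and 18.1 at day 8, and was not called in any comparison. Ubtf, the upstream binding factor that holds ribosomal genes open, was called higher at day 5. Its brighter probe read 0.824, 0.763 and 0.673 in proliferating cells, 0.813, 1.21 and 1.14 at day 2, 1.05, 1.21 and 1.02 at day 5, and 0.878, 0.944 and 0.777 at day 8. The day 5 arrays all lay above the proliferation arrays, with a change of 0.54 ± 0.17 (adjusted p = 0.0225). A second Ubtf probe was called higher at all 3 stages, by 0.46 ± 0.15, 0.81 ± 0.15 and 0.41 ± 0.15. The brighter probe's day 5 call was lost without day 5 array 2 or proliferation array 2 or 3 (adjusted p from 0.0509 to 0.0766), and its change was 0.06 in the slide-blocked fit (adjusted p = 0.906). Each of the Ubtf probes was marked non-uniform by the scanner software on 11 of the 12 arrays, and no slide-blocked value is given for the second.

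Among the small subunit factors, 10 of 13 were called lower at day 8, 10 at day 5 and 8 at day 2 (all genes 30.8%, 25.5% and 12.2%). Their median day 8 change was -1.10. The largest was Imp4, which joins the U3 particle to the precursor as part of the Mpp10 complex. Imp4 read 22.3, 22.9 and 37.6 in proliferating cells, 38.7, 14.7 and 14.3 at day 2, 8.82, 6.57 and 13.4 at day 5, and 6.49, 2.10 and 4.34 at day 8. The day 5 and day 8 arrays lay below the proliferation arrays, and the day 2 array on the proliferation slide was the highest of all 12. The Imp4 day 8 change was -2.78 ± 0.48 (6.88-fold, adjusted p = 0.000621), and -2.18 in the slide-blocked fit (adjusted p = 0.132). Its day 5 change of -1.54 ± 0.48 was lost without day 5 array 1 or 2 or proliferation array 3 (adjusted p from 0.0548 to 0.0777), and stood at -0.40 in the slide-blocked fit (adjusted p = 0.734). Imp3, its partner in the same complex, read 30.5, 29.4 and 29.3 in proliferating cells, 36.8, 46 and 33.9 at day 5 and 31.4, 33.2 and 35.2 at day 8. Its day 5 and day 8 arrays all lay above the proliferation arrays, but Imp3 was not called in any comparison (0.16 ± 0.16 at day 8).

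Noc4l and Nop14, whose yeast counterparts act together in the processome, changed by -1.93 ± 0.28 and -1.53 ± 0.33 at day 8. Both were also called at day 2 (-1.02 ± 0.28 and -1.10 ± 0.33). The Noc4l day 2 call was lost without proliferation array 2 (adjusted p = 0.0584), and the Nop14 one without day 2 array 1 or proliferation array 1 or 3 (adjusted p from 0.051 to 0.0861). Nop14 was the one called at day 8 in the slide-blocked fit (-2.43, adjusted p = 0.0179). Wdr75 and Heatr1, subunits of the UTP-A complex that binds the precursor first, were called lower at day 2, day 5 and day 8. Wdr75 read 6.79, 6.70 and 6.78 in proliferating cells and 2.57, 2.24 and 2.94 at day 8 (-1.40 ± 0.17, adjusted p = 4.98e-05), a call held in the slide-blocked fit (-1.86, adjusted p = 0.0112). Heatr1 reached -0.78 ± 0.13 at day 8, and its day 2 and day 8 calls were lost in that fit (adjusted p = 0.0586 and 0.0703). Utp20, a very large scaffold protein, was called at day 5 and day 8 (-1.10 ± 0.21 at both), and neither call stayed in the slide-blocked fit (adjusted p = 0.0513 and 0.298).

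The later-acting small subunit factors Tsr1, Rrp12, Ltv1 and Nob1 were all called lower at day 8. Tsr1, a GTPase-like protein of the late pre-40S particle, was at -1.28 ± 0.19, -1.01 ± 0.19 and -1.26 ± 0.19 at the 3 later stages, and its day 8 call held in the slide-blocked fit (-1.46, adjusted p = 0.0427) while its day 5 call did not (adjusted p = 0.0812). Rrp12, an export factor, was called lower at each stage, reached -1.10 ± 0.12 at day 8 (adjusted p = 1.9e-05), and fell again from day 5 to day 8 (-0.52 ± 0.12, adjusted p = 0.019). That last step was lost without day 5 array 1 or day 8 array 3 (adjusted p = 0.0781 and 0.0624), and it and the day 5 call were lost in the slide-blocked fit (adjusted p = 0.139 and 0.147). Ltv1, another export factor, was at -0.86 ± 0.17 at day 2 and -0.70 ± 0.17 at day 8, and its calls at day 2, day 5 and day 8 were lost in the slide-blocked fit (adjusted p = 0.0964, 0.364 and 0.321). Nob1, the nuclease that makes the mature end of 18S RNA, was at -0.67 ± 0.17 at day 8. Its day 5 change of -0.51 ± 0.17 was lost without day 5 array 1 or 3 or proliferation array 1 or 3 (adjusted p from 0.0627 to 0.0904).

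Bysl and Ddx10 were not called at day 8. Bysl (bystin, a pre-40S factor) read 0.219, 0.279 and 0.315 in proliferating cells and 0.374, 0.343 and 0.367 at day 5, which lay above them, and 0.216, 0.205 and 0.247 at day 8. It rose by 0.43 ± 0.16 at day 5 (adjusted p = 0.0425) and fell by 0.70 ± 0.16 from day 5 to day 8 (adjusted p = 0.0183). The Bysl rise was lost without day 2 array 1, any day 5 array, day 8 array 1 or proliferation array 1 or 2 (adjusted p from 0.0535 to 0.15), and the fall without day 5 array 1 or day 8 array 1 or 2 (adjusted p from 0.0573 to 0.0705). Ddx10, an RNA helicase, was called at day 2 only (-1.22 ± 0.34, adjusted p = 0.0203), on a probe that was well above background on 2 of 3 day 2 arrays. That call was lost without day 2 array 1 or 3 or proliferation array 1 (adjusted p from 0.0705 to 0.0725). Ddx10 read 0.0277, 0.0203 and 0.0222 in proliferating cells, 0.0132, 0.0166 and 0.0157 at day 5 and 0.0131, 0.0159 and 0.0156 at day 8. Those later arrays all lay below the proliferation arrays, with changes of -0.62 ± 0.34 and -0.65 ± 0.34 that did not pass the test (adjusted p = 0.156 and 0.128).

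**Figure D3:**
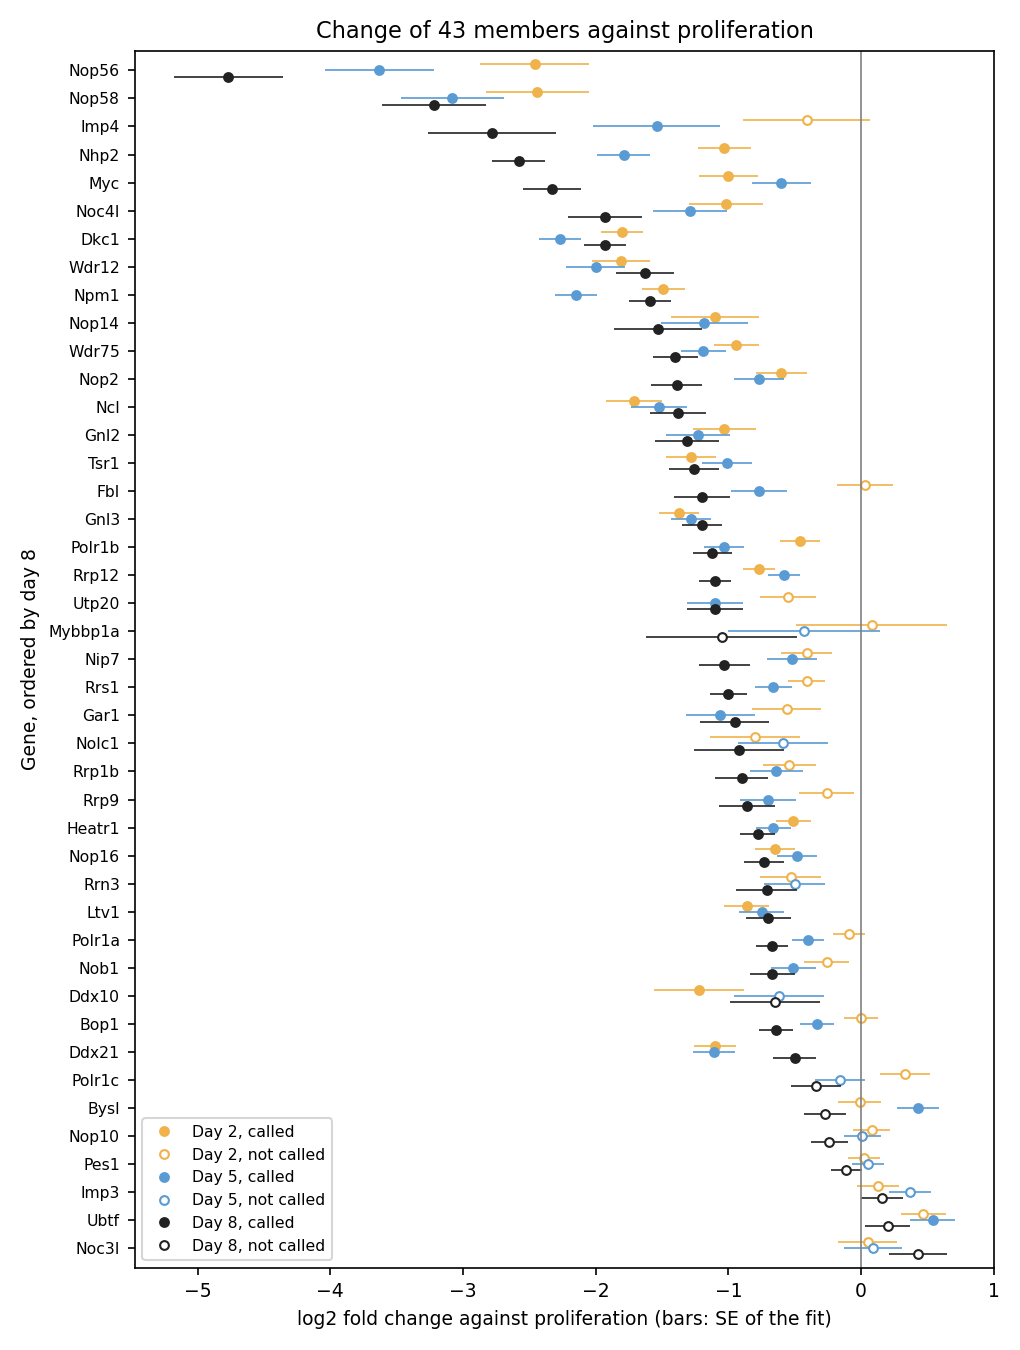
Points are the log2 change of each of the 43 genes against proliferation at day 2, day 5 and day 8, with the SE of the fit as bars and filled points for called changes. Genes are ordered by the day 8 change, from Nop56 at -4.77 to Noc3l at 0.43.

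Of the large subunit factors, 9 of 11 were called lower at day 8 and at day 5 and 5 at day 2 (all genes 30.8%, 25.5% and 12.2%). Their median day 8 change was -1. In the PeBoW complex, whose 3 proteins are needed to process the 28S precursor, 2 members were called lower at day 8. Its member Wdr12 read 0.181, 0.133 and 0.112 in proliferating cells, 0.0423, 0.0353 and 0.0426 at day 2, 0.0427, 0.0265 and 0.0377 at day 5, and 0.0509, 0.0473 and 0.0378 at day 8. Its later arrays all lay below the proliferation arrays, with changes of -1.81 ± 0.22, -2 ± 0.22 and -1.63 ± 0.22. Bop1 read 33.9, 36.8 and 37.2 in proliferating cells and 20.9, 22 and 26.5 at day 8 (-0.64 ± 0.13, adjusted p = 0.00133). Its day 5 change of -0.33 ± 0.13 (adjusted p = 0.0478) was lost when any single array but day 8 array 3 was left out (adjusted p from 0.0517 to 0.121). Pes1 read 10.8, 11.6 and 12.4 in proliferating cells and 10.3, 10.8 and 11.1 at day 8, and was not called in any comparison (-0.11 ± 0.12). The differences between the 3 proteins were not tested, and the Wdr12 and Bop1 day 8 calls were lost in the slide-blocked fit (adjusted p = 0.0723 and 0.233).

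The nucleolar GTPases Gnl3 (nucleostemin, known from stem and tumour cells) and Gnl2 were called lower at every stage. Gnl3 read 2.76, 3.25 and 3.24 in proliferating cells, 1.07, 1.16 and 1.36 at day 2, 1.36, 1.11 and 1.36 at day 5, and 1.51, 1.35 and 1.19 at day 8. Its fall was in place at day 2 (-1.37 ± 0.15, adjusted p = 0.00014), and the 3 later stages overlapped. With normexp the Gnl3 day 5 change was smaller, at -0.84 (adjusted p = 0.0018), and a further fall followed by day 8. The Gnl3 day 8 change was -1.20 ± 0.15, and -1.57 in the slide-blocked fit (adjusted p = 0.0175). Gnl2 was at -1.03 ± 0.24, -1.23 ± 0.24 and -1.31 ± 0.24, and its day 8 call was lost in the slide-blocked fit (-1.47, adjusted p = 0.126).

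Nop2, a methyltransferase of 28S RNA, read 26.8, 27.3 and 35.0 in proliferating cells, 20.8, 17.0 and 20.9 at day 2, 16.9, 13.7 and 22.1 at day 5, and 11.7, 10.2 and 11.9 at day 8. All later arrays lay below the proliferation arrays, and Nop2 reached -1.39 ± 0.19 at day 8 (adjusted p = 0.000109), a call held in the slide-blocked fit (-1.78, adjusted p = 0.0138). Its day 2 change of -0.60 ± 0.19 was lost without any one of the 6 arrays of day 2 and proliferation (adjusted p from 0.0509 to 0.115). Nip7 (-1.03 ± 0.19), Rrs1 (which brings in the 5S particle, -1 ± 0.14), Rrp1b (-0.90 ± 0.20) and Nop16 (-0.73 ± 0.15) were called at day 5 and day 8, and Nop16 also at day 2 (-0.65 ± 0.15). The Rrp1b calls stayed in the slide-blocked fit, and those of Nip7 (adjusted p = 0.589 and 0.179 at day 5 and day 8), Rrs1 (adjusted p = 0.177 and 0.101) and Nop16 (adjusted p = 0.277 and 0.111, and 0.101 at day 2) were lost. The day 5 call was also lost for Nip7 without day 5 array 1 or 2 or proliferation array 2 or 3 (adjusted p from 0.0742 to 0.134), for Nop16 without day 5 array 1 or 2 or proliferation array 3 (adjusted p from 0.0573 to 0.08), and for Rrp1b without proliferation array 1 (adjusted p = 0.0765). Noc3l, which accompanies pre-60S particles out of the nucleolus, read 0.553, 0.776 and 0.584 in proliferating cells and 0.762, 0.833 and 0.970 at day 8, with overlap and no call (0.43 ± 0.22).

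By their stage means the members differed in when the change appeared, and these differences were not tested. The shares below are from the fit without a slide term. In the slide-blocked fit the day 2 change of Imp4 was 0.53 (adjusted p = 0.526). Among the 34 called lower at day 8, the change at day 2 was a median of 62.8% of that at day 8, and the change at day 5 a median of 76.8%. For 10 of them at least 80% of the day 8 change was present at day 2, among them Dkc1, Npm1, Wdr12, Gnl3 and Ncl. For 4 it was under 30%, namely Imp4, Fbl, Polr1a and Bop1. Without day 2 array 1 the share was 31.9% for Imp4 in place of 14.9%, and 9.1% for Nob1 in place of 39.5%. Over the 12 ways of leaving out 1 array, a check added after the values had been seen, between 4 and 6 members were under 30% and between 9 and 13 at or over 80%. Between successive stages few steps passed the test. From day 2 to day 5, 5 members were called lower (Dkc1, Nhp2, Npm1, Fbl and Polr1b) and none higher, where 18% of all genes were called lower and 13.6% higher. From day 5 to day 8, 4 were called lower (Myc, Rrp12, Nhp2 and Bysl) and 2 higher (Npm1 and Ddx21), where the shares of all genes were 7.18% and 6.21%. In the slide-blocked fit these counts were 2 lower from day 2 to day 5 (Dkc1 and Npm1), and 1 lower (Myc) and 0 higher from day 5 to day 8. Of all genes, that fit called 13.5% lower from day 2 to day 5, and 1.48% lower and 1.67% higher from day 5 to day 8. Of the 43 members, 36 were called in the limma F test over the 4 stages, where 68% of all genes were.

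Other genes of the same pathway, taken from lists by role, also lay mostly below proliferation by day 8. Of all genes, 12.2%, 25.5% and 30.8% were called lower at day 2, day 5 and day 8. Of 11 other RNA polymerase I factors, 2, 5 and 7 (18.2%, 45.5% and 63.6%) were called lower and none higher, the day 2 share being near that of all genes. The largest day 8 changes were those of Tcof1 (treacle, which links transcription to processing) at -3.07 ± 0.26, Ttf1 (the termination factor) at -1.54 ± 0.27 and Polr1e (a polymerase I subunit) at -1.41 ± 0.17. Of 46 other small subunit factors, 20, 31 and 31 (43.5%, 67.4% and 67.4%) were called lower and 0, 3 and 4 higher. Ngdn (-2.10 ± 0.26), Dhx37 (-1.69 ± 0.16) and Nat10 (an RNA acetyltransferase, -1.66 ± 0.28) fell most, and Abt1 (1.24 ± 0.25), Tsr2 (1.07 ± 0.14) and Krr1 (0.76 ± 0.19) rose. Abt1 was well above background on 1 of the 3 proliferation arrays. Of 43 other large subunit factors, 24, 27 and 29 (55.8%, 62.8% and 67.4%) were called lower and 0, 1 and 1 higher. Lyar (-2.43 ± 0.26), Gtpbp4 (-1.65 ± 0.22) and Rsl1d1 (-1.55 ± 0.29) fell most, and Ebna1bp2 was the one called higher (0.35 ± 0.14, adjusted p = 0.0467), a call lost when any single array but day 2 array 2 or proliferation array 2 was left out (adjusted p from 0.0516 to 0.147). In the slide-blocked fit the day 8 counts were 4 of 11, 8 of 46 and 13 of 43 lower, where 9.04% of all genes were. The calls of Ttf1, Ngdn, Nat10, Abt1, Krr1, Gtpbp4 and Ebna1bp2 were lost in that fit (adjusted p from 0.0694 to 0.83).

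Myc's own network of partners and antagonists, of which 9 of 14 genes were tested, had calls in both directions. At day 8, 2 were called lower and 3 higher, or 22.2% and 33.3%, near the 30.8% and 25.7% of all genes. Max, the obligate partner, changed by -0.83 ± 0.18, and Mxd3, a Max-binding repressor known from dividing cells, by -2.78 ± 0.40. Mxd1 (1.74 ± 0.11) and Mxd4 (1.92 ± 0.25), Max-binding repressors that oppose Myc, rose, as did the Myc relative Mycl (1.68 ± 0.14). Mxd4 was well above background on 1 of the 3 proliferation arrays. The 3 rises held in the slide-blocked fit, and the calls of Max and Mxd3 did not (adjusted p = 0.301 and 0.0521). A further list held 15 tested genes known as Myc targets. Many act in metabolism, but others, such as Cdk4, Eif4e and Eif4a1, act in the cell cycle or translation. Of this list 9, 13 and 14 genes were called lower at day 2, day 5 and day 8 and none higher at day 8. The shares of all genes called lower at these stages were 12.2%, 25.5% and 30.8%. Among these 15 genes the following held the largest day 8 falls. Nme1 (-3.48 ± 0.52), Paics (-2.61 ± 0.44) and Odc1 (the first enzyme of polyamine synthesis, -2.40 ± 0.17) fell most, and Odc1 kept its call in the slide-blocked fit (-2.52, adjusted p = 0.00401) while Nme1 and Paics did not (adjusted p = 0.245 and 0.203).

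**Figure D4:**
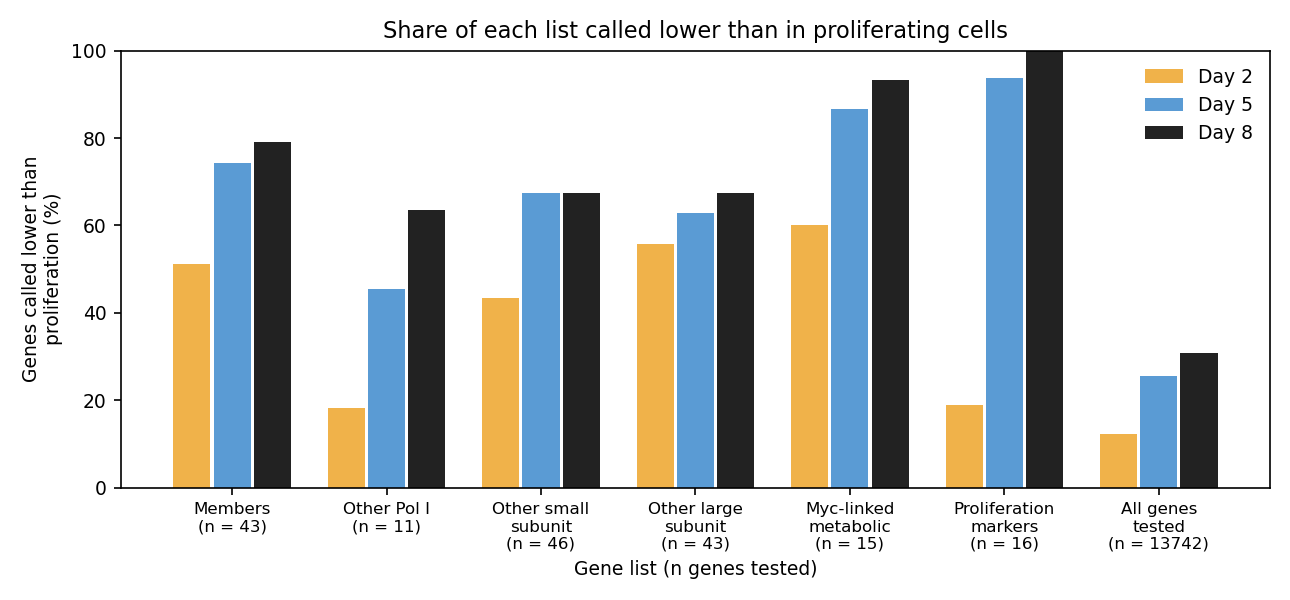
Bars are the percent of tested genes in each list that were called lower than in proliferating cells at day 2, day 5 and day 8, with the number tested under each list. The list labelled Myc-linked metabolic also holds genes of the cell cycle and translation. At day 2 the share was 51.2% of the members, who were chosen from these arrays, and 12.2% of all genes, and by day 8 it was 79.1% and 30.8%.

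Cell cycle genes were called lower mainly from day 5 on. Of 16 proliferation markers, 3 were called lower at day 2, 15 at day 5 and 16 at day 8, with medians of -0.35, -2.57 and -3.35, and Mcm3 (-4.96 ± 0.29), Birc5 (-4.44 ± 0.23) and Rrm2 (-4.09 ± 0.24) fell most by day 8. The day 2 share of the markers was 18.8%, where 12.2% of all genes were called lower. From day 2 to day 5, 15 of the 16 were called lower, with a median of -2.19, a step at which 5 of the 43 members and 18% of all genes were. The summed relative signal of the markers ran from 312 to 353 in proliferating cells, 274 to 281 at day 2, 71.0 to 79.8 at day 5 and 39.4 to 52.4 at day 8. The part of the fall in dividing cells in the members' changes was not tested. Of the muscle markers, Myod1 and Des were well above background on all 12 arrays, and Myh3, Tnnt3 and Ckm were higher at day 8 by 8.44 ± 0.21, 7.66 ± 0.26 and 7.48 ± 0.23, while Myf5 changed by -0.46 ± 0.15. No adipocyte marker of 4 was tested, since all were dim. Of 5 macrophage markers on the array 3 were tested, with Aif1 (1.56 ± 0.28) and Csf1r (1.29 ± 0.17) higher, Tyrobp at least 5.51-fold lower (adjusted p = 0.000731, not well above background at day 8), and Ptprc and Adgre1 dim. The summed macrophage signal ran from 0.0886 to 0.178 in proliferating cells, 0.115 to 0.146 at day 2, 0.132 to 0.15 at day 5 and 0.173 to 0.229 at day 8. Of 4 endothelial markers, Kdr and Cdh5 were lower at day 8, Tek was higher and Pecam1 was not called. The summed endothelial signal ran from 0.213 to 0.294 in proliferating cells, 0.783 to 1.07 at day 2, 0.678 to 0.874 at day 5 and 0.48 to 0.619 at day 8, so every later array lay above the proliferation arrays. Tek alone had a geometric mean of 0.137 in proliferating cells, 0.797 at day 2 and 0.54 at day 8. Of 5 osteoblast markers tested, Bglap was lower (-1.05 ± 0.36) and Dmp1 higher (0.78 ± 0.26). The summed signal of 6 osteoblast markers was 8.65 to 11 in proliferating cells, 7.11 to 7.87 at day 2, 6.46 to 7.21 at day 5 and 7.12 to 10.5 at day 8. That of the 4 dim adipocyte markers was 0.02 to 0.0307 in proliferating cells and 0.00434 to 0.00674 at day 8. The call was lost for Myf5 without proliferation array 1 or day 8 array 1 or 3 (adjusted p from 0.0583 to 0.0709), for Bglap without proliferation array 1 or day 8 array 2 or 3 (adjusted p from 0.0692 to 0.109), and for Dmp1 without proliferation array 2 or 3 or day 8 array 2 (adjusted p from 0.06 to 0.0974). The day 8 calls of Csf1r, Tyrobp, Cdh5, Bglap, Dmp1 and Myf5 were lost in the slide-blocked fit (adjusted p from 0.0758 to 0.592). With normexp those of Tyrobp (-0.30, adjusted p = 0.332), Cdh5 (-0.26, adjusted p = 0.281) and Myf5 (-0.22, adjusted p = 0.192) were lost. The part of these genes in the members' changes was not tested.

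Depth on an array is set by signal over background. Between 56.9% and 69.5% of spots were well above background on an array, no spot was saturated, and the 75th percentile ran from 1295 to 1993 scanner units. Pearson correlations over tested probes were 0.985 to 0.994 between arrays of a stage and 0.929 to 0.985 between stages. Each member was well above background on every array except Ddx10 at day 2 and Nop58 at day 5. The scanner software marked 19.8% to 28.3% of spots on an array as non-uniform. The probes of Npm1, Imp4, Gnl3, Gnl2, Ddx21, Nob1, Noc4l, Polr1b, Rrn3, Rrp1b, Tsr1 and Wdr75 carried that mark on all 12 arrays. Those of Myc, Nip7, Polr1a and Ubtf carried it on 11.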

How the data were processed

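Total RNA from 12 C2C12 samples was hybridised to one-colour (Cy3) Agilent arrays, per the labels' protocols. The deposited intensity values (processed signal) came from Agilent Feature Extraction, whose version the submitters' processing notes give as 10.5.1.1. Per the file headers it subtracts background within an array and applies no scaling between arrays. The array design was built on mm9, per the file headers, and no coordinates from it are given. Symbols were matched by RefSeq accession to the RefSeq table of GRCm38.p6, and 22216 probes were named.

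Each array's signal was divided by its 75th percentile over 37831 spots, with 1417 control spots and 200 negative probe spots left out, and log2-transformed. Outlier spots were dropped and non-uniform spots kept. Testing required a probe to exceed background clearly in all 3 arrays of some stage, which 22960 probes did. All 12 arrays were fitted together in limma 3.58.1 (R 4.3.3, lmFit and eBayes), with Benjamini-Hochberg adjustment and a threshold of 0.05. Each gene is represented by the brightest of its tested probes. Deviations from the stage means had a median correlation of 0.005 between arrays of the same replicate number, with 5 of 18 pairs over 0.1. Between arrays of different numbers the median was -0.014, with 6 of 36 pairs over 0.1, and no replicate block was used. Precision is limited by the 3 arrays per stage. The fit was tested on simulated data.

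Alternatives were normexp (offset 50) on the median signal and median local background, quantile normalization, another percentile, no filter, non-uniform spots left out, slide or replicate as a block, the median of a gene's probes, and leaving out each array. The members and lists were chosen with earlier results of these data known. Every member is named. Values in every array are given for Myc, the 4 members with the largest fall, the snoRNP cores and the RNA polymerase I group, and from other lists the 3 called genes with the largest day 8 change in each direction are named. Array values of further members were added after they had been seen.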

Additional observations from a re-analysis of the deposited data

How the results depend on the processing

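Of 101 member calls over the 5 comparisons, the number that kept direction and call was 100 with quantile normalization, 98 with the percentile over probes well above background on all arrays, 96 with the replicate block, 100 with the median of a gene's probes, 83 without the filter on dim probes, 78 with normexp and 46 in the slide-blocked fit. Leaving out 1 array kept between 86 and 96. With non-uniform spots left out only 35 of these calls had a value, of which 30 were kept with the percentile from all spots and 10 with the percentile from the spots kept, an alternative chosen after seeing the data. Signal over background limits Ddx10 at day 2 and Nop58 at day 5, each well above background on 2 of 3 arrays there. The other 41 members passed on every array, but some of their probes were dim. At day 8 Ncl read 24.9 to 56.4 scanner units and Nop56 53.6 to 75.5. Wdr12 read 54 to 86.2 and Nhp2 64.5 to 91.2 at that stage.

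In the slide-blocked fit, 16 members were called lower and 0 higher at day 5 and 13 lower at day 8 against proliferation, 2 lower from day 2 to day 5, and 1 lower and 0 higher from day 5 to day 8. The shares of all genes called lower there were, in the same order, 11.8%, 9.04%, 13.5% and 1.48%. With non-uniform spots left out and the percentile from all spots, the members called lower were 6, 10 and 10 at day 2, day 5 and day 8, 2 from day 2 to day 5 and 2 from day 5 to day 8, with 0 higher at day 5 and from day 5 to day 8, among 18 members with a value. With the percentile from the spots kept they were 3, 2 and 4, then 0 and 0, with 0 higher from day 5 to day 8. In that setting the log2 change turned positive for Heatr1 (0.10 at day 2 and 0.14 at day 5), Fbl (0.03), Rrp9 (0.10), Rrp12 (0.15), Nop2 (0.03) and Rrs1 (0.14) at day 5, and for Nolc1 (0.29) and Snhg10 (0.31) at day 8, while the median of all genes shifted to 0.80, 0.83 and 0.55. With normexp, 1 member was called higher at day 5, 2 lower from day 2 to day 5 and 0 higher from day 5 to day 8, and Gnl3 turned to -0.67 from day 5 to day 8. With the percentile over detected probes 0 were higher at day 5 and 1 from day 2 to day 5. With no filter, where more probes were tested, 0 were higher at day 5, and 1 was lower and 0 higher from day 5 to day 8. With the replicate block 1 was higher from day 5 to day 8, and with the median of probes 1 was higher at day 2. Without day 2 array 1 and day 5 array 3, an alternative chosen after seeing the data, 1 was higher at day 2, 1 at day 5 and 1 from day 5 to day 8, and 2 were lower from day 2 to day 5. Shares of all genes called are given here only for the slide-blocked fit, so the other counts cannot be read against them. The causes were not tested.

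Leaving out each array in turn, the members called lower ranged from 18 to 23 at day 2, 24 to 32 at day 5, 31 to 35 at day 8, 2 to 7 from day 2 to day 5 and 1 to 5 from day 5 to day 8. Those called higher ranged from 0 to 1, 0 to 2, 0 to 0, 0 to 1 and 0 to 2. Arrays of the same replicate number had a median correlation of 0.005 over 18 pairs, against -0.014 over 36 pairs of different numbers. The replicate block lost 5 of the 101 calls. Among all called probes, 60% were higher at day 2 and 46.3% at day 8, and these shares were 72.8% and 60.7% with normexp, 49.9% at day 2 with the detected percentile, and 96.5% and 79.7% with the spots kept (88.9% at day 5 against 49.9%). From day 2 to day 5 the spots kept gave 60.1% against 47.7%. From day 5 to day 8 the share was 46.7%, against 57.1% with quantile normalization, 58.9% in the slide-blocked fit, 23.5% with the spots kept, and 32.2% without day 2 array 1 and day 5 array 3.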

Other observations

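Host genes of small nucleolar RNAs and other nucleolar non-coding RNAs, a list added after the arrays had been seen, were measured on the same arrays. Of 11 such genes 9 had a probe and 8 were tested, and 3, 3 and 4 were called lower at day 2, day 5 and day 8, with none higher. These were 37.5%, 37.5% and 50%, where 12.2%, 25.5% and 30.8% of all genes were called lower. Snhg3, which hosts box H/ACA snoRNAs, changed by -1 ± 0.11, -1.16 ± 0.11 and -1.25 ± 0.11 (adjusted p = 4.03e-06 at day 8), and kept its day 8 call in the slide-blocked fit (-1.51, adjusted p = 0.00579). Snhg1, which hosts box C/D snoRNAs, changed by -0.55 ± 0.15, -1.04 ± 0.15 and -0.70 ± 0.15 and also kept its call in that fit (-1.17, adjusted p = 0.0455), but lost it with normexp (-0.38, adjusted p = 0.0938). The day 8 calls of Snhg6 and Snhg10 were lost in the slide-blocked fit (adjusted p = 0.216 and 0.541), and that of Snhg10 also with normexp (adjusted p = 0.148). Snhg6 (-0.91 ± 0.32) and Snhg10 (-0.45 ± 0.16) were called at day 8, and leaving out any of 4 arrays (array 2 or 3 of the proliferating cells, array 1 or 3 of day 8) ended both calls, as did day 8 array 2 for Snhg10, with adjusted p from 0.0517 to 0.111. Snhg7 was called at day 2 (-0.62 ± 0.15) and day 5 (-1.13 ± 0.15) and not at day 8 (-0.34 ± 0.15). Rmrp (-0.17 ± 0.17), the RNA of an enzyme that cuts the ribosomal precursor, Rpph1 (0.02 ± 0.22), the RNA of RNase P, and Snhg20 (-0.16 ± 0.15) were not called at day 8.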
